A study of Homo sapiens with 17 samples.

Results

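The comparison is between L363 cells given 1 nM rapamycin together with 0.5 uM MS275 and L363 cells given 1 nM rapamycin alone. It takes in 6 of the series' 17 arrays, the 3 whose titles name both drugs at the lower rapamycin dose and the 3 whose titles name that rapamycin dose by itself. L363 is an established human multiple myeloma cell line, and its total RNA was hybridised to oligonucleotide arrays after a 48 hour treatment. Both groups carry 1 nM rapamycin for the whole time, so they differ by MS275, and the question is what inhibition of histone deacetylases adds to inhibition of mTOR. The other 11 arrays are 3 of untreated cells, 3 with 0.5 uM MS275 alone, 3 with 10 nM rapamycin and 2 with 10 nM rapamycin and MS275, also at 48 hours. One cell line, 1 dose of MS275 and 1 time were used, and the labels name no vehicle for the untreated cells. The labels give replicate numbers without stating that these stand for separate cultures. P-values therefore measure only the spread between these arrays, which may be technical.

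Histone deacetylases remove acetyl groups from histone tails and other proteins, and the class I enzymes HDAC1, HDAC2 and HDAC3 work inside repressor complexes at promoters and enhancers. MS275, also called entinostat, is a benzamide that inhibits class I enzymes. Cells under such drugs gain histone acetylation, silent genes are often switched on, and division slows. Rapamycin binds FKBP12 and blocks mTOR complex 1, the kinase that couples nutrients and growth factors to protein synthesis, nucleotide and lipid synthesis and entry into the cell cycle. Myeloma cells are malignant plasma cells.

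Values are log2 signals per probe set, made by robust multi-array averaging (RMA), so that a difference of 1 is a doubling. For each of 19775 genes, the probe set used is the one of highest mean over the 17 arrays among those paired with that gene alone. Replicate 1 of the 1 nM combination stood apart. It and replicate 1 of the untreated cells held a narrower range of values than the other 15 arrays (SD over probe sets of 2.15 and 2.14 against 2.27 to 2.37), so counts are also given without both. Plasma cell genes were high in both groups, such as SDC1, the plasma cell surface proteoglycan CD138 (12.52, 12.47 and 12.01 without MS275 and 12.31, 12.27 and 11.27 with it), and the transcription factor IRF4 (12.71, 12.44 and 12.41 without MS275 and 12.99, 12.43 and 12.53 with it). Markers of other cell types lay near the array medians of 5.09 to 5.36, with medians slightly higher under MS275. The 12 T cell genes had medians of 4.65 to 4.85 without and 4.83 to 5.39 with it. For 10 myeloid genes these were 4.04 to 4.30 and 4.17 to 4.46, and for 8 red cell genes 4.94 to 5.40 and 5.36 to 5.59. For 12 epithelial genes they were 5.20 to 5.33 and 5.46 to 5.96, and for 12 fibroblast genes 4.92 to 5.03 and 5.0 to 5.19. Their part in the results was not tested. None of these markers passed the threshold in the fit as reported. CSF1R, a myeloid growth factor receptor, differed by 0.86 ± 0.20 (SE, adjusted p = 0.0556) and passed with the replicate block (adjusted p = 0.0396), with array weights and with trended eBayes. It also passed when all genes were fitted on the mean of their probe sets. CSF1R has a single probe set, so its own values are the same in that fit. The median of all 19775 genes was itself 0.116 higher with MS275. After quantile normalization that median was 0.0526 and after centring each array it was -0.0042, so list medians below are to be read against 0.116.

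MS275 added to 1 nM rapamycin changed 243 of the 19775 genes at a limma adjusted p under 0.05, which is 1.23%. Of these 185 rose (0.936% of genes tested) and 58 fell (0.293%). Rises had a median log2 change of 1.36 and ran from 0.72 to 3.76; falls had a median of -1.26 and ran from -0.70 to -2.37. The change was at least 1 (2-fold) for 147 of the rises and 46 of the falls, and at least 2 for 23 rises and 5 falls. In each of the 243 genes the 3 arrays of one group lay outside the range of the other, as they did for 21.7% of all genes. At an unadjusted p under 0.05 there were 2454 genes (12.4%). Counts of list members that rose or fell are to be read against 0.936% and 0.293%, and counts above or below 0 against the 63.2% of all genes with a change above 0.

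The count depends on how the arrays enter the fit. A block for the replicate number gave 559 genes (2.83%), 384 rises (1.94%) and 175 falls (0.885%). They include all of the 243 in the same direction. Without the pair of narrow arrays 265 passed, 186 rises and 79 falls, and 141 of the 185 rises and 46 of the 58 falls were among them. Leaving out 1 array of the rapamycin group gave 98 genes for its replicate 1, 112 for replicate 2 and 80 for replicate 3. Leaving out combination replicate 1 or 3 gave 121 and 140. It was 413 without replicate 1 of the untreated cells, an array that enters this comparison only through the shared estimate of the spread. With each array centred on its median 147 genes rose and 79 fell, so 65.0% of the calls were rises in place of 76.1%. Fitted on the 6 arrays of the groups compared, 39 genes passed. The losses given below for single genes leave out this fit unless it is named.

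**Figure D1:**
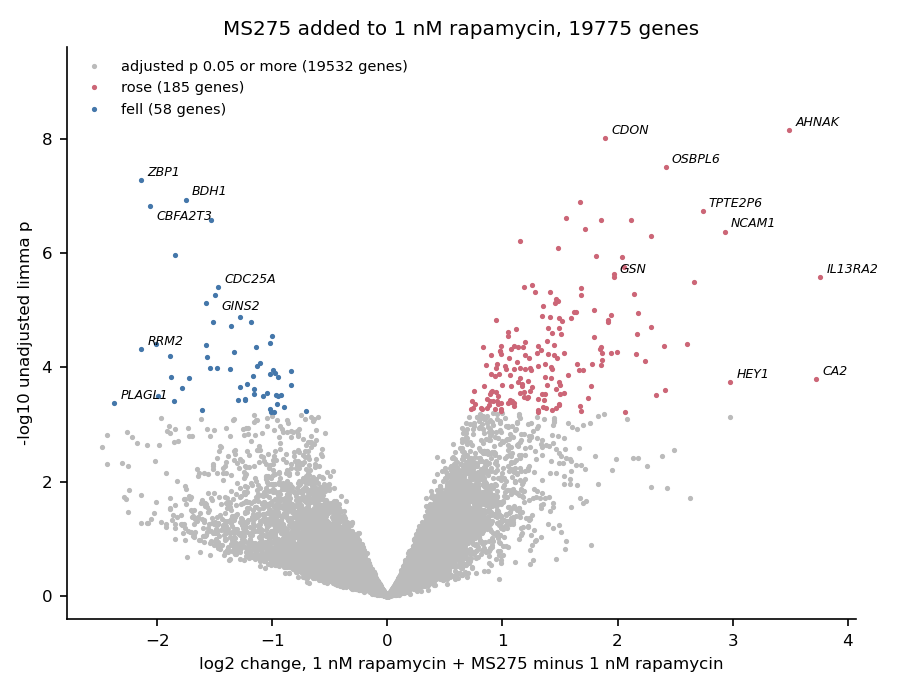
Log2 change with MS275 added to 1 nM rapamycin (x axis) against -log10 of the unadjusted limma p (y axis) for 19775 genes, with 1 point per gene. The 185 rises (red) reach further from 0 than the 58 falls (blue), and AHNAK has the smallest p.

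The largest rise was in IL13RA2, a decoy receptor chain for interleukin 13. Its log2 signal was 2.69, 1.93 and 2.05 with 1 nM rapamycin alone and 5.54, 5.69 and 6.72 with MS275 added, a change of 3.76 ± 0.50 (SE, adjusted p = 0.00221). The rapamycin arrays lie below the array medians and the combination arrays above them, and the groups lie far apart. CA2, which encodes carbonic anhydrase II, read 3.76, 4.34 and 3.92 with 1 nM rapamycin alone and 6.41, 7.44 and 9.36 with MS275 added, a change of 3.73 ± 0.73 (SE, adjusted p = 0.0208). The combination arrays of CA2 spread over almost 3 units, and all lie above every array without MS275. AHNAK, a very large scaffold protein of the cell cortex, had the smallest p of all genes, with 6.44, 7.40 and 6.51 with 1 nM rapamycin alone and 10.30, 10.14 and 10.39 with MS275 added and a change of 3.49 ± 0.29 (SE, adjusted p = 9.60e-05). Its 3 combination arrays are nearly equal. Other probe sets of AHNAK moved less, by 0.22 to 0.74.

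The 12 largest rises are genes of varied kinds. NCAM1, the neural cell adhesion molecule CD56 that is also found on many myelomas, rose by 2.93 ± 0.34 (SE, adjusted p = 5.97e-04), and its arrays read 4.41, 4.55 and 4.43 with 1 nM rapamycin alone and 6.85, 7.88 and 7.45 with MS275 added. TNNT1, troponin T of slow skeletal muscle, rose by 2.67 ± 0.36 (SE, adjusted p = 0.00257), and its arrays read 4.70, 4.36 and 5.36 without MS275 and 7.32, 7.50 and 7.61 with it. Neither gene's groups overlap. Of 6 further NCAM1 probe sets 1 moved by 3.42 and 5 by -0.32 to 0.59. HEY1, a repressor that acts below Notch, rose by 2.98 ± 0.59 (SE, adjusted p = 0.023). Its combination replicate 3 read 10.16 against 8.21 and 8.25 on the other combination arrays. Replicate 3 was also the highest with 1 nM rapamycin alone (6.44 against 5.39 and 5.85). CAV1, the coat protein of caveolae, rose by 2.61 ± 0.45 (SE, adjusted p = 0.0107). OSBPL6, a lipid-transfer protein of the oxysterol-binding family, rose by 2.42 ± 0.23 and had 3 nearly equal arrays without MS275. TOX2, a high-mobility-group transcription factor, rose by 2.40 ± 0.41, H1-10, a replication-independent linker histone, by 2.41 ± 0.50, the aspartic protease NAPSA by 2.33 ± 0.49 and the pseudogene TPTE2P6, whose probes may also read its relatives, by 2.74 ± 0.29. IL13RA2, AHNAK, NCAM1, TPTE2P6, TNNT1 and OSBPL6 passed with any 1 of the 17 arrays left out. CA2 missed the threshold without 1 nM rapamycin replicates 1, 2 or 3, or 1 nM combination replicates 2 or 3 (adjusted p up to 0.0992). HEY1 missed the threshold without 1 nM rapamycin replicates 1, 2 or 3, or 1 nM combination replicate 3 (adjusted p up to 0.126). CAV1 missed the threshold without 1 nM rapamycin replicates 1 or 3 (adjusted p up to 0.0654). H1-10 missed the threshold without 1 nM rapamycin replicates 1, 2 or 3, or 1 nM combination replicates 1, 2 or 3 (adjusted p up to 0.136). TOX2 missed the threshold without 1 nM rapamycin replicate 3 (adjusted p up to 0.0654). NAPSA missed the threshold without 1 nM rapamycin replicates 1, 2 or 3, or 1 nM combination replicates 1 or 3, or 10 nM rapamycin replicate 1 (adjusted p up to 0.152), and also without the pair of narrow arrays.

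**Figure D2:**
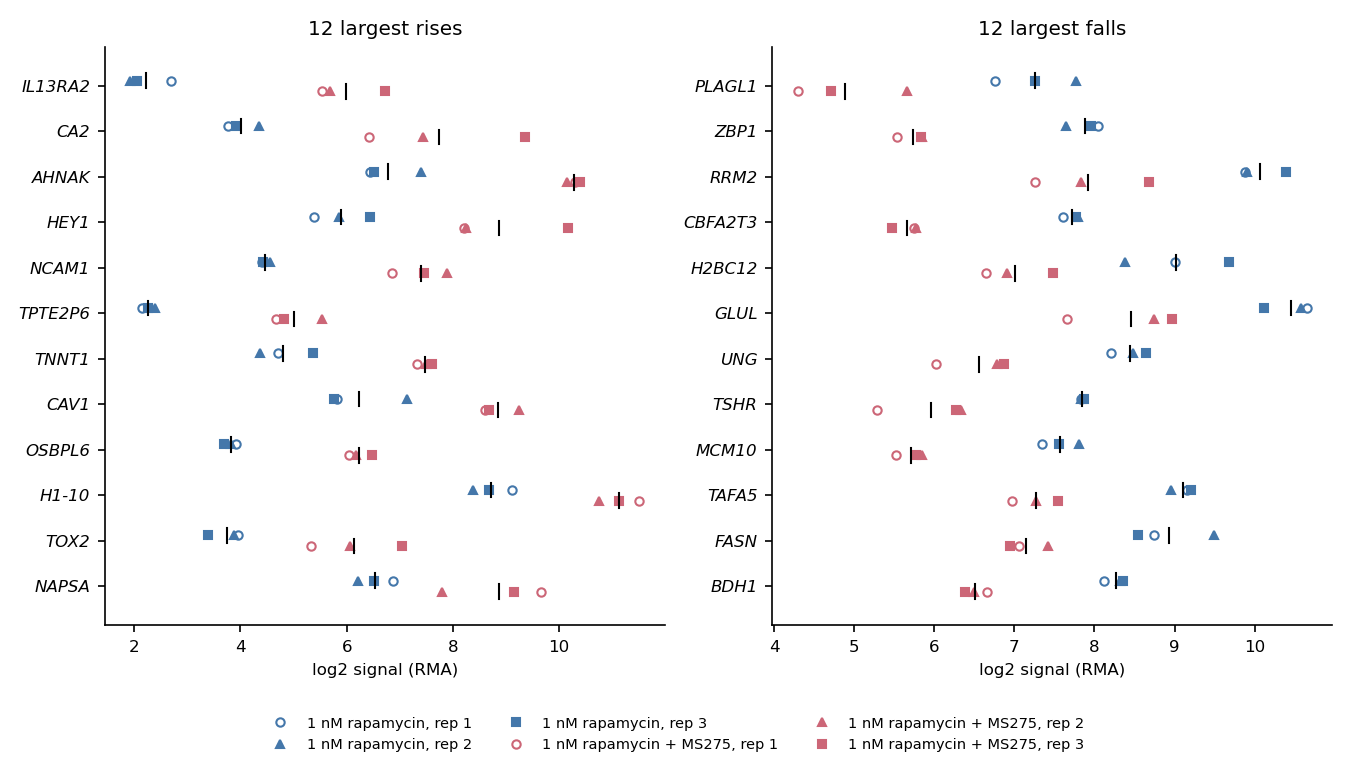
Log2 signal (x axis) on each of the 6 arrays for the 12 largest rises (left) and 12 largest falls (right); blue symbols are 1 nM rapamycin, red symbols 1 nM rapamycin with MS275, shapes mark replicate numbers, open circles are replicate 1 and black ticks are group means. In none of the 24 genes do the groups overlap, and IL13RA2, TPTE2P6, TOX2 and OSBPL6 start from signals under 4.

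The falls were led by PLAGL1, an imprinted zinc finger transcription factor that restrains growth, with log2 signals of 6.76, 7.76 and 7.25 with 1 nM rapamycin alone and 4.29, 5.66 and 4.71 with MS275 added and a change of -2.37 ± 0.52 (SE, adjusted p = 0.0397). ZBP1, a sensor of left-handed nucleic acids that triggers cell death and interferon responses and is abundant in myeloma cells, fell by 2.14 ± 0.21 (SE, adjusted p = 2.62e-04), and its arrays read 8.04, 7.65 and 7.96 with 1 nM rapamycin alone and 5.54, 5.85 and 5.83 with MS275 added. The ZBP1 arrays are tight in both groups, with a gap of nearly 2 units between them. CBFA2T3, a co-repressor of the ETO family that itself recruits histone deacetylases, fell by 2.06 ± 0.22 (SE, adjusted p = 4.23e-04), and its arrays read 7.61, 7.79 and 7.77 with 1 nM rapamycin alone and 5.75, 5.77 and 5.48 with MS275 added. BDH1, the mitochondrial enzyme that interconverts ketone bodies, fell by 1.75 ± 0.18 (SE, adjusted p = 4.23e-04), and GLUL, glutamine synthetase, by 1.99 ± 0.42 (SE, adjusted p = 0.0331), its lowest array being combination replicate 1 at 7.66 against 8.75 and 8.96. TSHR, the thyrotropin receptor, fell by 1.88 ± 0.37 and the secreted protein TAFA5 by 1.84 ± 0.23. The other 5 of the 12 largest falls, RRM2, H2BC12, UNG, MCM10 and FASN, act in DNA synthesis, chromatin or lipid synthesis and are described with those groups. ZBP1, CBFA2T3, BDH1 and TAFA5 passed with any 1 array left out. The PLAGL1 call was lost whichever array was left out, except untreated replicates 1, 2 and 3 and 1 nM combination replicate 2 and 10 nM rapamycin replicates 2 and 3 and 10 nM combination replicates 1 and 2 (adjusted p up to 0.179), and also after quantile normalization and after centring. GLUL missed the threshold without 1 nM rapamycin replicates 1, 2 or 3, or 1 nM combination replicates 1 or 2, or 10 nM rapamycin replicate 1 (adjusted p up to 0.157), and also on the mean of its probe sets. TSHR missed the threshold without 1 nM rapamycin replicates 1, 2 or 3, or 1 nM combination replicate 1 (adjusted p up to 0.0992).

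The drug's own targets showed no called change in RNA. HDAC1 read 10.28, 10.28 and 10.24 with 1 nM rapamycin alone and 9.35, 9.89 and 9.79 with MS275 added, a difference of -0.59 ± 0.26 (SE, adjusted p = 0.371); its groups do not overlap. HDAC2 and HDAC3 differed by -0.26 ± 0.43 (SE, adjusted p = 0.782) and 0.16 ± 0.28 (SE, adjusted p = 0.788), with overlapping arrays. Of 24 measured members of class I deacetylase complexes 0 rose and 0 fell (median -0.234), and of 7 class II and IV deacetylases 0 passed (median 0.491), HDAC6, the tubulin deacetylase, coming nearest with 0.83 ± 0.23 (SE, adjusted p = 0.126). With the pair of narrow arrays left out 1 member of the class I list rose.

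Of 21 genes known to rise with deacetylase inhibitors in many cell types, 2 rose, against 0.936% of all genes, and 18 of the 21 had a change above 0, against 63.2%; the median was 0.348. GSN, the actin-severing protein gelsolin, is a long-known response gene of this kind. Its signal was 5.11, 5.31 and 4.94 with 1 nM rapamycin alone and 7.02, 6.73 and 7.51 with MS275 added, and it rose by 1.97 ± 0.26 (SE, adjusted p = 0.00221). The groups of arrays lie more than 1 unit apart. SYT11, a synaptotagmin of vesicle traffic, rose by 1.46 ± 0.21 (SE, adjusted p = 0.00398) and read 7.53, 7.25 and 6.81 without MS275 and 8.71, 8.82 and 8.44 with it. Both passed with any 1 array left out, but SYT11 did not pass on only the 6 arrays compared. The 6 further GSN probe sets moved by only -0.11 to 0.26, and GSN missed the threshold on the mean of all its probe sets. CDKN1A, the cell cycle inhibitor p21 and the best-known target of these drugs, read 7.26, 7.06 and 7.56 with 1 nM rapamycin alone and 9.38, 8.31 and 8.72 with MS275 added. The groups do not overlap and the difference was 1.51 ± 0.43 (SE, adjusted p = 0.136), which passed with the replicate block (adjusted p = 0.0357), as did GADD45B, a stress gene (difference 1.02 ± 0.30, adjusted p = 0.0421 with the block).

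Core histone genes were among the falls, whereas the linker histone gene H1-10 rose. Of 15 measured genes of the histone list, which leaves out H1-10, 0 rose and 2 fell, against 0.936% and 0.293% of all genes. The list's median was -0.661. With the replicate block 5 of the 15 fell, against 0.885% of all genes. H2BC12 read 9.0, 8.38 and 9.68 with 1 nM rapamycin alone and 6.65, 6.90 and 7.49 with MS275 added and fell by 2.01 ± 0.34 (SE, adjusted p = 0.0107). H2AX, the variant that is phosphorylated at DNA breaks, read 8.85, 9.36 and 9.21 without MS275 and 8.03, 8.23 and 8.30 with it and fell by 0.95 ± 0.20 (SE, adjusted p = 0.0331). Clustered histone genes are near-identical in sequence, so a probe set may read several of them, and H2BC12 stands for its probe set. H2BC12 missed the threshold without 1 nM rapamycin replicate 3, or 1 nM combination replicate 1 (adjusted p up to 0.0588). H2AX missed the threshold without MS275-alone replicates 1 or 3, or 1 nM rapamycin replicates 2 or 3, or 1 nM combination replicates 1, 2 or 3 (adjusted p up to 0.164), and also on the mean of its probe sets, with array weights, with trended eBayes and without the pair of narrow arrays. Further H2AX probe sets moved by 0.33, -0.29 and 0.11.

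Genes of DNA replication were among the falls. Of 45 measured genes of the G1/S step and replication 8 fell and 0 rose, against 0.293% and 0.936% of all genes. Their median change was -0.94, 42 of the 45 lay below 0, and in 26 all combination arrays lay below all rapamycin arrays, against 6.80% of all genes. With the replicate block 14 fell, against 0.885% of all genes. Without the pair of narrow arrays 11 fell, with a median of -0.723. CDC25A, the phosphatase that activates CDK2 at the G1/S step, read 8.45, 8.67 and 8.68 with 1 nM rapamycin alone and 7.16, 7.03 and 7.19 with MS275 added and fell by 1.47 ± 0.20 (SE, adjusted p = 0.00275). GINS2, a subunit of the replicative helicase, read 8.31, 8.60 and 8.92 with 1 nM rapamycin alone and 6.84, 7.20 and 7.30 with MS275 added and fell by 1.5 ± 0.21 (SE, adjusted p = 0.00316). In both genes the groups are more than 1 unit apart.

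The MCM2 to MCM7 proteins form the ring of that helicase. MCM5 read 9.63, 10.38 and 9.84 with 1 nM rapamycin alone and 8.66, 8.47 and 8.02 with MS275 added and fell by 1.57 ± 0.28 (SE, adjusted p = 0.0126), and MCM2 fell by 1.37 ± 0.26 (SE, adjusted p = 0.0163). MCM4 fell by 0.96 ± 0.21 (SE, adjusted p = 0.0405), CDC45, which joins the ring to the GINS complex, by 1.22 ± 0.25 (SE, adjusted p = 0.0248), and CDC6, which loads it onto DNA, by 1.61 ± 0.37 (SE, adjusted p = 0.0474); these 3 genes were chosen after their values were seen. MCM10, needed to activate the helicase, read 7.34, 7.81 and 7.55 without MS275 and 5.52, 5.85 and 5.77 with it and fell by 1.85 ± 0.40 (SE, adjusted p = 0.0371). Each of the 8 fell on all 3 combination arrays relative to every rapamycin array. CDC25A and GINS2 passed with any 1 array left out, but GINS2 did not pass on only the 6 arrays compared. MCM5 missed the threshold without 1 nM rapamycin replicates 2 or 3, or 1 nM combination replicate 3 (adjusted p up to 0.0761). MCM2 missed the threshold without 1 nM rapamycin replicates 2 or 3, or 1 nM combination replicates 1 or 3 (adjusted p up to 0.0932). The MCM10 call was lost whichever array was left out, except untreated replicates 1, 2 and 3 and MS275-alone replicate 3 and 10 nM rapamycin replicates 2 and 3 (adjusted p up to 0.154), and also after centring. Further GINS2 probe sets moved by only 0.06 to 0.09, GINS2 missed the threshold on the mean of all its probe sets, and of 2 further CDC25A probe sets 1 moved by -1.68 and 1 by -0.03.

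Many promoters of replication and division genes carry sites for E2F factors, which the retinoblastoma protein silences together with histone deacetylases. The 250 bases before the start sites of RefSeq (GRCh38.p14) were therefore searched on both strands for the E2F-like letters TTNGCGC or TTCCCGC for CCAAT, the NF-Y box, and for 4 other short runs. An E2F-like match was found in 25 of 77 windows of genes that fell (32.5%), in 21 of 224 windows of genes that rose (9.38%) and in 3091 of 21490 windows of all genes tested (14.4%). All G1/S and replication genes, changed or not, had it in 24 of 47 windows (51.1%), and those of them that fell in 4 of 8 (50%). The 77 windows belong to 48 of the 58 genes that fell, since some genes have several windows and others none. CCAAT was found in 41.6%, 29.9% and 32.4% of windows of genes that fell, genes that rose and all genes. In the same order GGGCGG, the GC box, was in 71.4%, 62.9% and 54%, CACGTG, an E-box, in 15.6%, 2.68% and 7.38%, TATAAA in 13%, 10.7% and 8.34%, and TTTGAA, a cell cycle element, in 3.9%, 10.7% and 10.9%. Of the letters searched, all but TTTGAA were thus more frequent in windows of genes that fell than in those of all genes. A match is a run of letters and was not tested as a binding site. The windows of 4 genes that fell are printed 5′ to 3′ on the gene's strand with E2F-like and CCAAT matches in capitals: GINS2 at chr16:85688955-85689204 (minus strand), CDC25A at chr3:48188418-48188667 (minus), CDCA3, a trigger of mitotic entry, at chr12:6851287-6851536 (minus), and SPC24, a kinetochore subunit, at chr19:11155783-11156032 (minus).
GINS2: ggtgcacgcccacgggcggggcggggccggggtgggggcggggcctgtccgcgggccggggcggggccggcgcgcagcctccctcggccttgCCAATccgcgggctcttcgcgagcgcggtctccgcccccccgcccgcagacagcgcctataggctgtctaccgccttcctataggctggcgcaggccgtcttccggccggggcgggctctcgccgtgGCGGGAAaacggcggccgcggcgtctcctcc
CDC25A: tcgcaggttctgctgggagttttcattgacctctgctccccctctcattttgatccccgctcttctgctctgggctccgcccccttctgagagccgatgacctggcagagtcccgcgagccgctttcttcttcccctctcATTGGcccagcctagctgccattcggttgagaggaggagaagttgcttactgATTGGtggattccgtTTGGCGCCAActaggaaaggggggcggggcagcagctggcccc
CDCA3: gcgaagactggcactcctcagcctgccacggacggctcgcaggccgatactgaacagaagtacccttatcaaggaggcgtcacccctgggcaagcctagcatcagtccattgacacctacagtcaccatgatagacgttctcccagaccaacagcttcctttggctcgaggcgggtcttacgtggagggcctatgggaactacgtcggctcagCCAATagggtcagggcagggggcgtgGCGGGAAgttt
SPC24: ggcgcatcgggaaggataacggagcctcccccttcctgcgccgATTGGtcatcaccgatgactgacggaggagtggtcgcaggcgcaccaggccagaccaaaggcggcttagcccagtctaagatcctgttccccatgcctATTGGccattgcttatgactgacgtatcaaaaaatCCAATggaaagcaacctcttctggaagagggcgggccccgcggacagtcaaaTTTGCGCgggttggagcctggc
GINS2 fell by 1.5 ± 0.21, CDC25A by 1.47 ± 0.20, CDCA3 by 1.08 ± 0.23 (SE, adjusted p = 0.0326) and SPC24 by 1.02 ± 0.23 (SE, adjusted p = 0.0458); the last 2 were chosen after their values were seen, as genes of cell division with both kinds of match. They are among 8 candidate genes that fell and have a single window, with an E2F-like match in it. Genes at some genomic positions were left out of the candidates, so 8 is not a full count of such genes. Of the 8, ANKLE1 (-1.48) and HPDL (-1.16) fell more than CDCA3 and SPC24 and have no CCAAT in their windows.

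The falls included genes that supply DNA building blocks. RRM2, the regulated subunit of ribonucleotide reductase that makes deoxynucleotides, read 9.89, 9.91 and 10.40 with 1 nM rapamycin alone and 7.26, 7.83 and 8.68 with MS275 added. All rapamycin arrays lie more than 1 unit above the highest combination array, and the fall was 4.41-fold, or 2.14 ± 0.37 (SE, adjusted p = 0.0111) on the log2 scale. It was the 1 gene past the threshold among 11 of deoxynucleotide supply, against 0.293% of all genes that fell (median -0.515); TYMS, thymidylate synthase, differed by -1.37 ± 0.35 (SE, adjusted p = 0.0818) and passed with the replicate block (adjusted p = 0.014). UNG, which removes uracil from DNA, read 8.21, 8.48 and 8.65 with 1 nM rapamycin alone and 6.02, 6.78 and 6.87 with MS275 added and fell by 1.89 ± 0.34 (SE, adjusted p = 0.0124). PFAS, an enzyme of purine synthesis, fell by 1.14 ± 0.20 (SE, adjusted p = 0.0107) and was the only call among 20 genes of purine, pyrimidine and folate synthesis; with the block CTPS1, CTP synthase, passed too (difference -1.29 ± 0.40, adjusted p = 0.0113). Of 17 genes of recombination repair 0 passed, against 1.23% of all genes, and 9 had combination arrays below all rapamycin arrays, against 6.80% (median -0.489). With the block 3 of the 17 fell, against 0.885% of all genes. They were BRCA1, UBE2T and EXO1, chosen for that. RRM2 missed the threshold without 1 nM rapamycin replicate 3, or 1 nM combination replicate 1 (adjusted p up to 0.0691). UNG missed the threshold without 1 nM rapamycin replicates 2 or 3, or 1 nM combination replicate 1 (adjusted p up to 0.0717). PFAS missed the threshold without 1 nM rapamycin replicate 2 (adjusted p up to 0.0641).

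Genes of mitosis had a single call. Of 35 measured, 1 fell and 0 rose, against 0.293% and 0.936% of all genes. The median was -0.652 and 32 lay below 0, whereas 63.2% of all genes lay above it. That gene was MYBL2, the B-MYB factor that switches on genes of late S phase and mitosis, which read 8.33, 8.73 and 8.65 with 1 nM rapamycin alone and 7.60, 7.48 and 7.68 with MS275 added and fell by 0.98 ± 0.22 (SE, adjusted p = 0.0495). The MYBL2 call was lost whichever array was left out, except untreated replicates 1 and 3 (adjusted p up to 0.201), and also with the filter on low signals, with array weights, with trended eBayes and without the pair of narrow arrays. MKI67, the proliferation marker Ki-67, differed by -0.37 ± 0.20 (SE, adjusted p = 0.457) with overlapping arrays, and AURKA, a mitotic kinase that also stabilises MYC protein, by -0.58 ± 0.26 (SE, adjusted p = 0.389). KIF20A, a kinesin of cytokinesis, differed by -1.17 ± 0.40 and passed with the block (adjusted p = 0.0454). Among 16 CDK inhibitors and quiescence genes 0 passed; besides CDKN1A the largest positive differences by p were BTG1, an antiproliferative gene (1.15 ± 0.36), and the CDK4 and CDK6 inhibitors CDKN2D (1.41 ± 0.45) and CDKN2B (1.13 ± 0.36). CDKN1B, p27, differed by -0.55 ± 0.56 (SE, adjusted p = 0.653); 1 array, combination replicate 1, read 6.94 against 8.90 to 9.65 on the other 5.

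The series' title concerns MYC protein, and MYC RNA did not pass. It read 12.41, 11.98 and 12.44 with 1 nM rapamycin alone and 12.33, 12.54 and 12.79 with MS275 added, a difference of 0.28 ± 0.27 (SE, adjusted p = 0.629) with overlapping groups and a 95% confidence interval of -0.29 to 0.85. MAX, its binding partner, differed by -0.01 ± 0.35 (SE, adjusted p = 0.989). Of 13 genes of the MAX network 0 passed (median 0.142), and of 17 regulators of MYC protein turnover 0 passed, FBXW7, a ubiquitin ligase subunit that targets MYC, at 0.50 ± 0.43 (SE, adjusted p = 0.598). Of 38 MYC targets of growth and ribosome assembly 0 passed, against 1.23% of all genes, and 35 lay below 0 (median -0.463), whereas 63.2% of all genes lay above it. In 15 of them all combination arrays lay below all rapamycin arrays, against 6.80% of all genes. With the replicate block 2 of the 38 fell, against 0.885% of all genes. They were LDHA and the nucleolar MYBBP1A, chosen for that. Ribosomal protein genes, 27 in all, had 0 calls and a median of -0.0701.

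**Figure D3:**
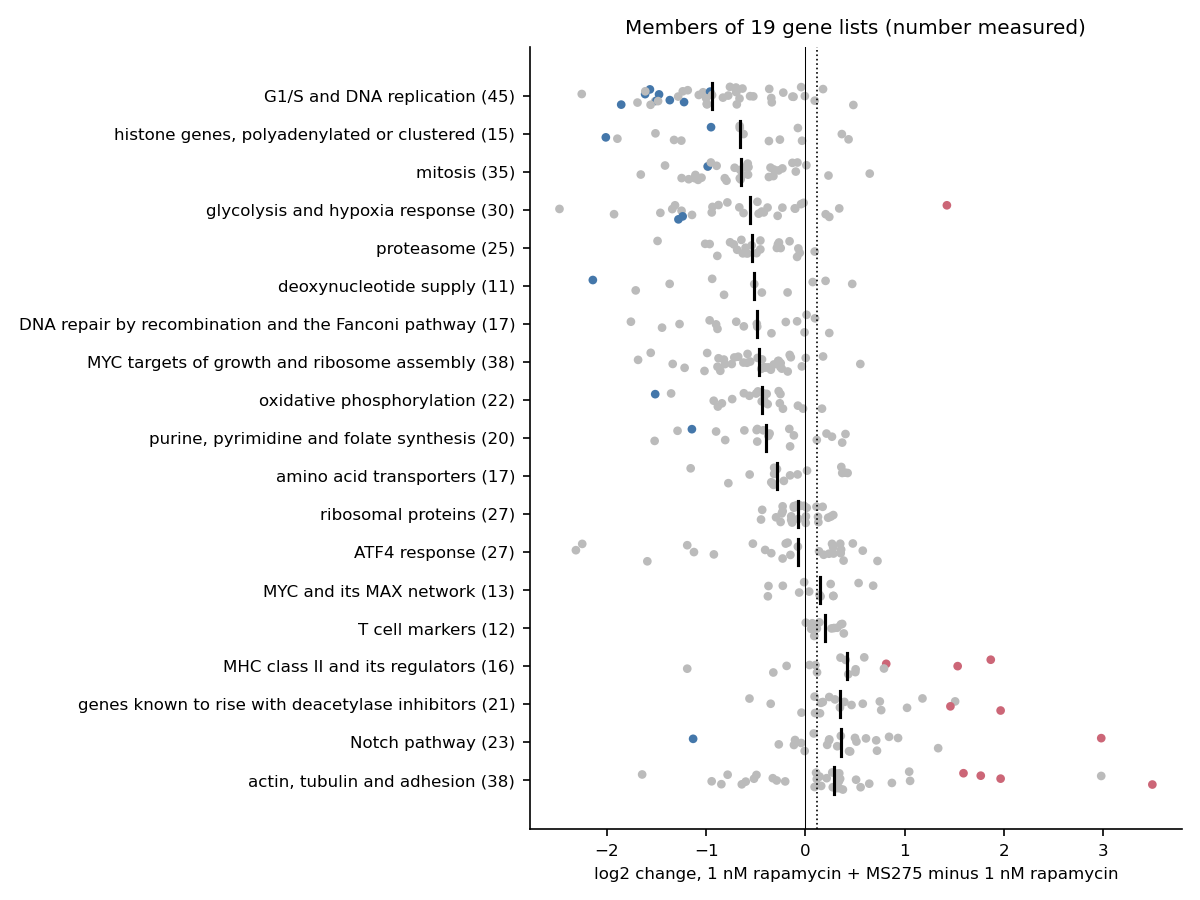
Log2 change with MS275 added to 1 nM rapamycin (x axis) for the measured members of 19 gene lists (number measured in brackets); red points rose, blue points fell, grey points did not pass, thick ticks are list medians and the dotted line is the median of all genes, 0.116. The list of G1/S and replication genes has the lowest median and 8 blue points. In the MHC class II and actin lists the points that passed are all red, and 13 of 16 and 34 of 38 points are grey.

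Genes of glucose use and lipid synthesis were among the falls and the rises. HK2, the first enzyme of glycolysis in many tumours, read 8.92, 8.69 and 8.35 with 1 nM rapamycin alone and 7.24, 7.20 and 7.69 with MS275 added and fell by 1.28 ± 0.20 (SE, adjusted p = 0.00552). SLC2A1, the glucose transporter GLUT1, read 7.55, 7.30 and 6.84 without MS275 and 6.07, 6.19 and 5.72 with it and fell by 1.24 ± 0.27 (SE, adjusted p = 0.0355). NDRG1, a stress and differentiation gene that hypoxia induces, rose by 1.42 ± 0.27 (SE, adjusted p = 0.0162). These are the 3 calls among 30 genes of glycolysis and the hypoxia response, against 1.23% of all genes. Without the pair of narrow arrays HK2 was the 1 call left. Of the 30 genes 26 lay below 0 (median -0.553), whereas 63.2% of all genes lay above it. With the block 4 of the 30 fell, LDHA and VEGFA joining, against 0.885% of all genes. Among 12 genes of fatty acid synthesis and activation FASN, fatty acid synthase, read 8.75, 9.50 and 8.54 with 1 nM rapamycin alone and 7.05, 7.42 and 6.95 with MS275 added and fell by 1.79 ± 0.37 (SE, adjusted p = 0.0276), and ACSL1, which activates fatty acids, rose by 1.07 ± 0.21 (SE, adjusted p = 0.0191); without the pair of narrow arrays ACSL1 was the 1 call left in that list. Further probe sets moved by 0.15 for FASN, by 0.09 for SLC2A1 and by -0.08 and -0.46 for HK2. NDUFB8, a subunit of respiratory complex I, read 11.15, 11.34 and 11.51 with 1 nM rapamycin alone and 9.50, 9.90 and 10.05 with MS275 added and fell by 1.51 ± 0.24 (SE, adjusted p = 0.00582), the 1 call of 22 genes of oxidative phosphorylation, 21 of which lay below 0 (median -0.435). HK2 and NDUFB8 passed with any 1 array left out, but neither passed on only the 6 arrays compared. HK2 also missed the threshold on those arrays with the block, and on the mean of its probe sets. SLC2A1 missed the threshold without MS275-alone replicate 2, or 1 nM rapamycin replicates 1, 2 or 3, or 1 nM combination replicates 1, 2 or 3, or 10 nM rapamycin replicate 1 (adjusted p up to 0.187), and also on the mean of its probe sets and without the pair of narrow arrays. NDRG1 missed the threshold without 1 nM rapamycin replicates 1, 2 or 3, or 1 nM combination replicates 1 or 3 (adjusted p up to 0.0828), and also without the pair of narrow arrays. FASN missed the threshold without 1 nM rapamycin replicates 1, 2 or 3, or 1 nM combination replicates 1 or 3 (adjusted p up to 0.142), and also on the mean of its probe sets and without the pair of narrow arrays. ACSL1 missed the threshold without 1 nM rapamycin replicates 2 or 3, or 1 nM combination replicates 1 or 3 (adjusted p up to 0.11), and also on the mean of its probe sets.

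Of genes tied to mTOR through amino acid supply and stress, 0 of 17 amino acid transporters, 0 of 27 genes of the ATF4 response, 0 of 17 aminoacyl-tRNA synthetases, 0 of 27 genes of the mTOR complexes and effectors and 0 of 22 sterol genes passed. For lists of this size 0 calls are near the 1.23% called over all genes. SLC7A5, the large neutral amino acid transporter, read 9.43, 9.49 and 9.39 with 1 nM rapamycin alone and 8.82, 8.48 and 8.68 with MS275 added; the groups do not overlap and the difference was -0.78 ± 0.23 (SE, adjusted p = 0.151). DDIT4, the mTOR inhibitor REDD1, read 8.92, 9.57 and 7.76 with 1 nM rapamycin alone and 6.37, 6.82 and 6.13 with MS275 added and differed by -2.31 ± 0.69 (SE, adjusted p = 0.156), a large difference with a spread of almost 2 units among the rapamycin arrays. DEPTOR, an mTOR-binding inhibitor that is abundant in myeloma, differed by -1.05 ± 0.34 and passed with the block (adjusted p = 0.0391), as did the transporter SLC38A5 (-1.16 ± 0.28, adjusted p = 0.0279). In the insulin and PI3K list 2 of 16 genes rose, against 0.936% of all genes. They were PIK3CD, the leukocyte PI3K subunit p110 delta, by 1.43 ± 0.23 (SE, adjusted p = 0.00789), and FOXO1, a transcription factor that AKT keeps out of the nucleus, by 1.44 ± 0.25 (SE, adjusted p = 0.0107). FOXO1 read 8.23, 8.47 and 8.30 without MS275 and 9.83, 9.50 and 10.0 with it. PIK3CD passed with any 1 array left out, but not on only the 6 arrays compared. FOXO1 missed the threshold without 1 nM rapamycin replicates 1 or 3 (adjusted p up to 0.0571). Proteasome genes had 0 calls among 25, although 24 lay below 0 (median -0.542), and 0 of 29 genes of the unfolded protein response and 0 of 30 of the lysosome and autophagy passed.

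Genes of antigen presentation were among the rises. Of 16 MHC class II genes and regulators 3 rose and 0 fell, against 0.936% and 0.293% of all genes, with a median of 0.419; 1 of them passed without the pair of narrow arrays. The probe set named HLA-DRB4, which may also read other DRB genes, gave 8.89, 9.52 and 9.87 with 1 nM rapamycin alone and 11.33, 10.88 and 11.67 with MS275 added and rose by 1.87 ± 0.34 (SE, adjusted p = 0.0138). Further probe sets of that name moved by 0.42 and 0.44. HLA-DOA and HLA-DMA, which control peptide loading of class II molecules, rose by 1.53 ± 0.32 (SE, adjusted p = 0.0307) and 0.81 ± 0.18 (SE, adjusted p = 0.0446). CIITA, the master activator of the class, differed by -0.19 ± 0.46 (SE, adjusted p = 0.855) with overlapping arrays, while CD74, the invariant chain, read 13.66, 13.81 and 13.63 without MS275 and 14.04, 14.19 and 14.08 with it, a difference of 0.41 ± 0.14 (SE, adjusted p = 0.228). Further CD74 probe sets moved by 1.60 and 0.37, and CD74 passed on the mean of its probe sets and with array weights. NLRC5, the corresponding activator of class I genes, read 5.89, 6.48 and 5.82 with 1 nM rapamycin alone and 7.89, 7.61 and 7.16 with MS275 added and rose by 1.49 ± 0.24 (SE, adjusted p = 0.00689), the 1 call among 14 class I and antigen processing genes, and HLA-E passed with the block (difference 0.72 ± 0.17, adjusted p = 0.0496). NLRC5 passed with any 1 array left out, but not on only the 6 arrays compared. HLA-DRB4 missed the threshold without 1 nM rapamycin replicates 1 or 2, or 1 nM combination replicates 1 or 3 (adjusted p up to 0.0828), and also on the mean of its probe sets. HLA-DOA missed the threshold without 1 nM rapamycin replicates 1, 2 or 3, or 1 nM combination replicates 1 or 3 (adjusted p up to 0.168), and also on the mean of its probe sets, after centring and without the pair of narrow arrays. The HLA-DMA call was lost whichever array was left out, except untreated replicate 1 and 10 nM rapamycin replicate 3 (adjusted p up to 0.207), and also with the filter on low signals, after centring, with trended eBayes and without the pair of narrow arrays.

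Among genes of cytokine signalling and cell death, besides IL13RA2, REL, the NF-kB subunit c-Rel, read 8.09, 8.27 and 7.67 with 1 nM rapamycin alone and 9.39, 9.45 and 9.18 with MS275 added and rose by 1.34 ± 0.23 (SE, adjusted p = 0.0114), and NFKBIA, which holds NF-kB in the cytoplasm, rose by 1.15 ± 0.24 (SE, adjusted p = 0.031), making 3 rises of 28, against 0.936% of all genes, and 2 of 28 without the pair of narrow arrays. TNFSF10, the death ligand TRAIL, read 3.97, 4.41 and 3.89 with 1 nM rapamycin alone and 5.01, 5.96 and 5.57 with MS275 added and rose by 1.43 ± 0.32 (SE, adjusted p = 0.0474), 1 of 17 death receptor and caspase genes. IER3, an early response gene, rose by 1.15 ± 0.22 (SE, adjusted p = 0.0162), 1 of 21 MAPK feedback and immediate early genes. With the block 1 of the 21 rose and 1 fell, against 1.94% and 0.885% of all genes. In the BCL2 family 0 of 17 passed: BCL2L11, the death activator BIM, differed by 0.59 ± 0.29 (SE, adjusted p = 0.42), MCL1, a survival factor of plasma cells, by 0.26 ± 0.17 (SE, adjusted p = 0.499), and BID by -1.15 ± 0.29 (SE, adjusted p = 0.0807), which passed with the block (adjusted p = 0.0425). Of 17 p53 targets 0 passed, and with the block 2 rose, against 1.94% of all genes. Of 26 interferon-stimulated genes 0 passed, IFI6 coming nearest (1.61 ± 0.39 (SE, adjusted p = 0.0682), and adjusted p = 0.0454 with the block). REL missed the threshold without 1 nM rapamycin replicate 3 (adjusted p up to 0.0706), and also on the mean of its probe sets. NFKBIA missed the threshold without 1 nM rapamycin replicates 1, 2 or 3, or 1 nM combination replicates 1 or 3 (adjusted p up to 0.148), and also on the mean of its probe sets, after centring and without the pair of narrow arrays. The TNFSF10 call was lost whichever array was left out, except untreated replicates 1 and 2 and MS275-alone replicate 1 and 1 nM combination replicate 1 (adjusted p up to 0.205), and also on the mean of its probe sets, after quantile normalization and after centring. IER3 missed the threshold without 1 nM rapamycin replicates 2 or 3, or 1 nM combination replicates 1 or 3 (adjusted p up to 0.0998). Ligands of natural killer cell receptors were chosen after their values were seen: MICA, which binds NKG2D, read 4.20, 5.28 and 4.25 without MS275 and 6.31, 6.09 and 5.83 with it and rose by 1.5 ± 0.32 (SE, adjusted p = 0.0318), and NCR3LG1, which binds NKp30, rose by 2.0 ± 0.35 (SE, adjusted p = 0.0116).

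Of 24 genes of plasma cell identity and the myeloma surface 1 rose and 0 fell, against 0.936% and 0.293% of all genes. It was GPRC5D, an orphan receptor of plasma cells that is a target of myeloma therapy. Its arrays read 7.61, 7.38 and 7.51 with 1 nM rapamycin alone and 9.29, 9.49 and 9.15 with MS275 added, and it rose by 1.81 ± 0.23 (SE, adjusted p = 0.00118), 3.51-fold, and passed with any 1 array left out. CD38, another therapy target, read 7.64, 7.16 and 7.20 without MS275 and 8.08, 7.97 and 7.72 with it; the groups do not overlap, the difference was 0.59 ± 0.20 (SE, adjusted p = 0.245), and it passed with the block (adjusted p = 0.0473). SLAMF7 differed by -2.18 ± 0.58 (SE, adjusted p = 0.0994), and its further probe sets moved by -1.585 and -1.25. It passed on the mean of its probe sets, with array weights and without 1 nM combination replicate 2. It also passed with the block on only the arrays compared. PRDM1, the factor BLIMP1, differed by 0.29 ± 0.44 (SE, adjusted p = 0.765), SDC1 by -0.38 ± 0.33 (SE, adjusted p = 0.602) and IRF4 by 0.13 ± 0.21 (SE, adjusted p = 0.778). The list's median log2 signal per array was 9.80 to 10.0 without and 9.39 to 9.63 with MS275. Of 18 B cell genes 0 passed (median 0.253).

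In the list of actin, tubulin and adhesion genes 4 of 38 rose and 0 fell, against 0.936% and 0.293% of all genes. Besides AHNAK and GSN these were TUBA1A, an alpha-tubulin of developing neurons whose sequence is close to that of other alpha-tubulins, by 1.59 ± 0.25 (SE, adjusted p = 0.00556), and ITGB7, an integrin chain with which myeloma cells bind stroma. ITGB7 read 11.12, 10.55 and 10.44 with 1 nM rapamycin alone and 12.99, 12.49 and 11.93 with MS275 added and rose by 1.77 ± 0.36 (SE, adjusted p = 0.026). With the block 5 of the 38 rose and 2 fell, against 1.94% and 0.885% of all genes. The falls were STMN1, which destabilises microtubules (-1.64 ± 0.53), and TUBA1B (-0.64 ± 0.15). VCL, vinculin, which links actin to adhesion sites, rose by 2.18 ± 0.33 (SE, adjusted p = 0.00523) and was chosen after its value was seen. In the Notch list 1 of 23 genes rose, HEY1, and 1 fell, MFNG, a fringe enzyme that modifies Notch receptors, which read 9.69, 9.56 and 9.72 without MS275 and 8.98, 8.21 and 8.38 with it and fell by 1.13 ± 0.21 (SE, adjusted p = 0.0157). With the block 2 of the 23 rose and 1 fell, against 1.94% and 0.885% of all genes. Among 29 neuronal and germ cell genes PRAME, a cancer-testis antigen, rose by 1.65 ± 0.31 (SE, adjusted p = 0.0153), and MAP2, a neuronal microtubule protein, read 2.36, 2.54 and 2.81 with 1 nM rapamycin alone and 4.75, 5.01 and 6.88 with MS275 added, a difference of 2.98 ± 0.70 (SE, adjusted p = 0.0559) that passed with the block (adjusted p = 0.0211). TUBA1A passed with any 1 array left out. ITGB7 missed the threshold without 1 nM rapamycin replicates 2 or 3, or 1 nM combination replicates 1 or 2 (adjusted p up to 0.132), and also after quantile normalization. MFNG missed the threshold without 1 nM rapamycin replicates 1, 2 or 3, or 1 nM combination replicates 2 or 3 (adjusted p up to 0.082), and also on the mean of its probe sets. PRAME missed the threshold without 1 nM rapamycin replicates 1 or 2, or 1 nM combination replicates 1 or 3 (adjusted p up to 0.0861).

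The same drug was also added to untreated cells and to 10 nM rapamycin, on arrays that enter the comparison above only through the shared estimate of the spread. MS275 alone changed 295 genes (1.49%), 205 rises (1.04%) and 90 falls (0.455%). On 10 nM rapamycin it changed 86 (0.435%), 59 rises (0.298%) and 27 falls (0.137%), with 2 combination arrays. Of the 185 rises at 1 nM, 184 were also above 0 without rapamycin and 99 of them passed there, and 184 were above 0 at 10 nM, where 55 passed. Of the 58 falls 55 and 58 lay below 0, and 29 and 20 passed. None passed in the opposite direction. Over all genes 48.9% and 61.3% had the same sign, with the pair of narrow arrays kept in. The rises shared with MS275 alone are 53.5% of the 185 and 48.3% of the 205 rises of MS275 alone, and the shared falls are 50.0% of the 58 and 32.2% of the 90. Across all 19775 genes the log2 changes at 1 nM correlated with those of MS275 alone at r = 0.253 and with those at 10 nM at r = 0.570, and at 0.708 and 0.817 without the pair of narrow arrays, 1 of which is in each of the 1 nM combination and untreated groups. Genes are not independent replicates, so these are descriptions.

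**Figure D4:**
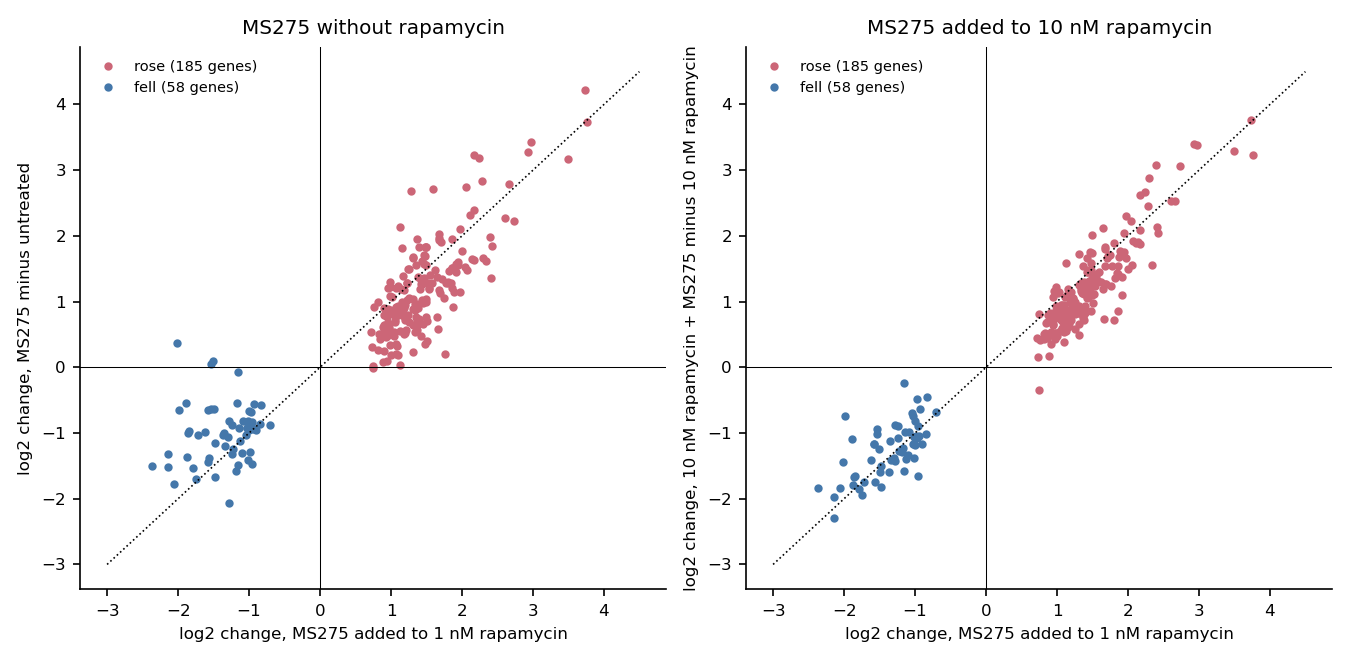
Log2 change with MS275 added to 1 nM rapamycin (x axis) against MS275 without rapamycin (left) and MS275 added to 10 nM rapamycin (right) for the 185 genes that rose (red) and 58 that fell (blue) at 1 nM; the dotted line marks equal changes. All but 1 of the rises lie above 0 in each panel, and 3 falls lie above 0 on the left.

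All 3 MS275 comparisons called 50 genes as rises and 14 as falls. The rises include AHNAK (3.49 at 1 nM, 3.17 without rapamycin and 3.30 at 10 nM), IL13RA2 (3.76, 3.73 and 3.23), NCAM1 (2.93, 3.28 and 3.39) and GSN (1.97, 2.11 and 1.66). The falls include CBFA2T3 (-2.06, -1.77 and -1.83), ZBP1 (-2.14, -1.31 and -1.98) and CDC25A (-1.47, -1.15 and -1.82). Median changes of the 45 G1/S and replication genes were -0.479 without rapamycin, -0.94 at 1 nM and -0.745 at 10 nM, with 5, 8 and 5 falls. Without the pair of narrow arrays the median at 1 nM was -0.723, no lower than that at 10 nM. HEXIM1, an inhibitor of the elongation kinase P-TEFb chosen after its values were seen, is also among the shared rises, with 1.97, 1.15 and 2.30.

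Whether the effect of MS275 differs with rapamycin present was tested gene by gene as the difference of the 2 changes. In limma 0 of 19775 genes passed for 1 nM against no rapamycin (smallest adjusted p = 0.49; 916 genes, 4.63%, at an unadjusted p under 0.05) and 0 for 1 nM against 10 nM (smallest adjusted p = 0.998; 123 genes, 0.622%). This does not show equal effects, since the 95% confidence interval of a difference extended to either side by a median of 0.762 and 0.808. The count of 916 also depends on the arrays. It was 2041 with the replicate block, 298 without 1 nM combination replicate 1 and 2921 without untreated replicate 2. DISP2, a relative of the Hedgehog release protein dispatched, changed by 2.02 with MS275 alone and by 0.59 on 1 nM rapamycin, a difference of -1.43 (interval -1.94 to -0.93). C3AR1, the receptor for complement fragment C3a, changed by 2.69 and 1.29, a difference of -1.40 (-1.95 to -0.85). H2BC12 changed by 0.37 with MS275 alone and by -2.01 on 1 nM rapamycin, a difference of -2.38 (-3.42 to -1.34), and NDUFB8 by 0.09 and -1.51. PDGFRL and SEMA3A complete the 6 genes with the smallest p in this test. Against 10 nM the 6 were RIMKLB, SEMA3A, RASSF2, COL14A1, KHSRP and GRIP1, with RIMKLB at 0.75 on 1 nM and -0.34 on 10 nM. These intervals are for the single gene and are not adjusted for the number of genes.

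**Figure D5:**
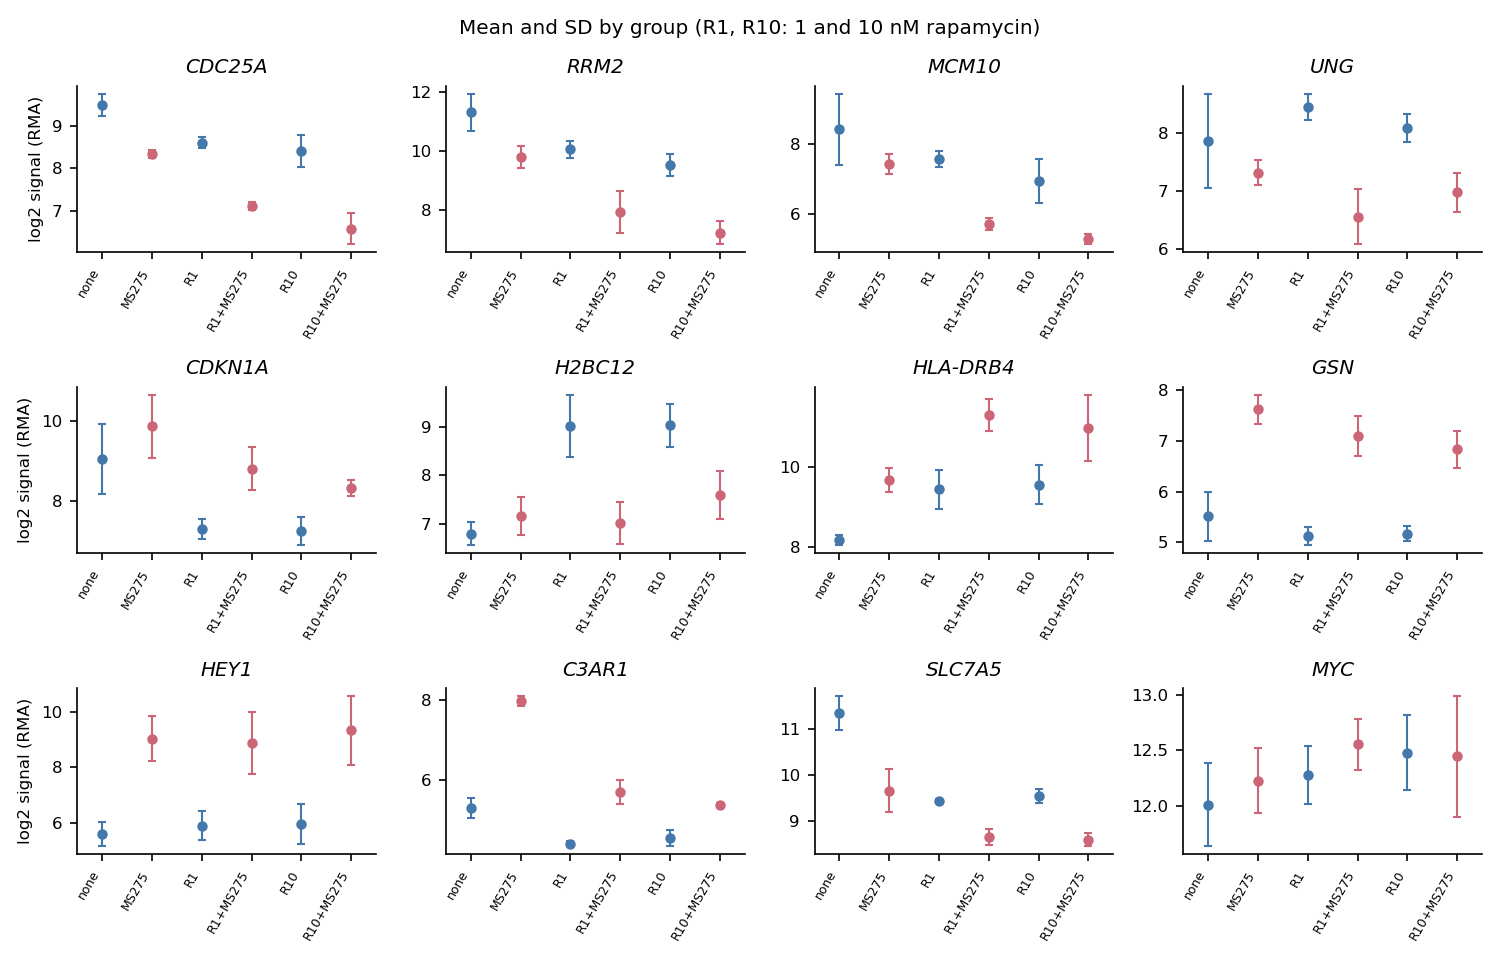
Mean log2 signal (y axis) with SD bars in the 6 groups for 12 genes (n = 3 arrays, and 2 for R10+MS275); blue points are groups without MS275, red points with it. CDC25A and RRM2 are lowest in the combinations, GSN and HEY1 are high in every group with MS275, and H2BC12 is highest in the groups with rapamycin alone.

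The levels in all groups show where the added effect starts from. RRM2 had a mean log2 signal of 11.32 ± 0.64 (SD, n = 3) in untreated cells, 9.81 ± 0.37 with MS275, 10.06 ± 0.29 with 1 nM rapamycin and 7.92 ± 0.72 with both. CDC25A went through 9.48 ± 0.26, 8.33 ± 0.10, 8.60 ± 0.13 and 7.12 ± 0.09 in the same order, so that either drug alone gave an intermediate level. GSN had 5.51 ± 0.49, 7.62 ± 0.29, 5.12 ± 0.18 and 7.09 ± 0.40, high with MS275 whether or not rapamycin was there. H2BC12 had another order: 6.79 ± 0.24 in untreated cells, 7.16 ± 0.39 with MS275, 9.02 ± 0.65 with 1 nM rapamycin and 7.01 ± 0.43 with both, the last being near the untreated level. CDKN1A stood at 9.04 ± 0.87, 9.86 ± 0.79, 7.29 ± 0.25 and 8.80 ± 0.54, lowest with rapamycin alone. HLA-DRB4 was 8.16 ± 0.13, 9.66 ± 0.30, 9.43 ± 0.50 and 11.29 ± 0.39, highest with both drugs.

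The choice of probe set matters for single genes. For 145 of the 243 genes the array holds further singly named probe sets, 313 in all, of which 270 had the same sign of change; for 114 genes all did. Of 57 genes past the threshold that the naming rule picks, 22 passed with every 1 of the 17 arrays left out in turn. Of the 57, 33 passed under all other alternatives but the fits with only the groups compared. None of the 57 changed direction under any alternative run. Since the groups do not overlap in any called gene, leaving out an array could not reverse the sign, so this says little about robustness.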

How the data were processed

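The authors deposited 1 table of log2 signals for 54613 probe sets on 17 arrays, made with affy and RMA per the submitters' processing notes. No version is given in the sources used here. Values were used as deposited, no per-sample column was left out, and no scanner files or detection calls were used, so signal over background is not known. Of the probe sets 41091 carry 1 gene symbol, 1801 several and 11721 none, and 41037 of the first matched RefSeq (GRCh38.p14) by Entrez ID. Group means of 6 groups were fitted to 19775 genes on all 17 arrays in R 4.3.3 with limma 3.58.1 (lmFit, eBayes). Benjamini-Hochberg adjustment was over the 19775 genes of a comparison, with a threshold of 0.05, and the fit has no term for replicate number. The median 95% confidence interval extends 0.539 to either side. The method was tested on simulated data with independent noise on each array. These had no replicate effect and no narrow arrays, so how the fit handles such features was not tested.

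Replicate numbers 1 and 2 recur in every group, and number 3 in all but the 10 nM combination. Between the 2 groups compared, arrays of equal number deviated together from their group's means (r across genes 0.347, 0.515 and 0.730, against 0.0812 at most for unequal numbers). The numbers thus pair these arrays. The pairing comes from the data, not the labels, and a block fit is an alternative. Pairing was not checked in this way for the 10 nM groups. Replicates 1 and 2 of the 10 nM combination correlated best with 1 nM combination replicates 2 (r = 0.9943) and 3 (r = 0.9927). The block and the same-numbered omissions use the numbers as labelled, so for that group they may join arrays that are not paired. The block on only the arrays compared, which gave 449 genes, does not include that group.

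The genes named are the top 12 rises and top 12 falls by size among called genes with no overlap of arrays, the 4 members of each of 45 lists with the smallest p (939 of 1029 entries measured), the 6 genes with the smallest p in each test of a difference, and 46 genes of interest. The comparison, lists and genes were chosen with earlier results of these data known. Lists are described by counts and medians.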

Additional observations from a re-analysis of the deposited data

How the results depend on the processing

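Besides the reported settings, the fit was run with the replicate block, with only the arrays of the groups compared (with and without block), on genes with a mean log2 signal of at least 5, on the mean of a gene's probe sets, after quantile normalization, after centring, with array weights, with trended and robust eBayes, without both narrow arrays, and without arrays in turn. For MS275 added to 1 nM rapamycin, MS275 alone and MS275 added to 10 nM rapamycin the counts were 243, 295 and 86 as reported, 559, 662 and 338 with the replicate block, 39, 9 and 0 with only the groups compared, 449, 78 and 0 with these and the block, and 922, 1504 and 325 with array weights. At 10 nM, the 2 counts of 0 stand beside 1703 and 963 genes at an unadjusted p under 0.05. Without both narrow arrays 531 genes passed for MS275 alone and 262 at 10 nM. Leaving out 1 array, or the same-numbered array of every group, gave 0 to 413, 10 to 362 and 0 to 157 genes. The count of 0 at 1 nM arose without replicate 3 of every group, which leaves 2 arrays a group. For the difference of the MS275 effect between 1 nM and no rapamycin such omissions gave 0 to 1 gene. Under every alternative not printed here the counts of the 3 comparisons stayed within 1.5 times the reported ones. Precision is limited by 3 arrays a group, and the median interval of a change extends 0.539 to either side.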
